A study of Mus musculus with 6 samples.

Results

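Mitochondrial ribosomal protein genes, Mrpl for the large and Mrps for the small subunit of the mitochondrial ribosome, were compared between the 2 cell forms of a mouse glioma model. The genes were taken by symbol (Mrpl or Mrps followed by a digit) from a deposited table of 12151 genes, which held 75 of them, 47 of the large and 28 of the small subunit. The rule uses no measured value, and each of the 75 had a mean of at least 1 CPM (reads scaled by the authors to the size of a library), so all of them were tested. GL261, a mouse glioma line labelled as differentiated glioma cells, was grown in DMEM with fetal bovine serum. The mNS cells, labelled as neurosphere glioma stem-like cells, were grown in DMEM/F12 with B-27, basic FGF, EGF and heparin and without serum. Both media held penicillin, streptomycin, hepes, L-glutamine and β-mercaptoethanol, and cells of both forms were collected while growing in log phase. GL261 was sequenced at passages 17, 33 and 34 (the passage field of the third library says 33, its title 34) and mNS at passages 72, 77 and 85, with 1 library per passage. Cell line, medium and passage range differ together between the groups, so their parts in any difference cannot be told apart. Nothing in the labels states that separate cultures were used within a group, and p-values measure only how far these libraries spread, which may be technical.

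The mitochondrial ribosome translates the few messenger RNAs of the mitochondrial genome, which encode core subunits of the respiratory chain and of ATP synthase. Its RNAs are made inside the organelle, while its proteins are encoded in the nucleus, made in the cytosol and imported, so that output of many unlinked nuclear genes has to meet in 1 particle. Some of these proteins descend from bacterial ribosomal proteins and others were added in the mitochondrial lineage. NRF1, ETS factors such as GABP, and YY1 are known for binding promoters of nuclear genes with mitochondrial functions.

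Between 12534422 and 14225175 reads per library fell in the listed genes, 49014 to 58876 of them in the 75 mitoribosomal genes, and 1 read was worth 0.0708 to 0.0773 CPM. No mitochondrially encoded gene was listed, so the transcripts this ribosome translates are not analysed here. The labelled identities were checked against markers fixed for this purpose. Olig2, an oligodendrocyte lineage and glioma stem cell factor, had 8.54 ± 2.97 CPM in GL261 and 437 ± 22.8 CPM in mNS (SD, n = 3), while Sox2 had 181 ± 41.0 and 184 ± 15.1 CPM. Of the other neural progenitor and glioma markers, Olig1 and Fabp7 were called higher in mNS, whereas Nes (1518 ± 175 and 955 ± 236 CPM) and Cd44 (394 ± 12.6 and 240.3 ± 19.7 CPM) were called lower, against the direction of the stem-like label. Prom1 was not among the listed genes. Astrocytic Gfap was low, with 3.45 ± 1.81 CPM in GL261 against 0.101 ± 0.115 CPM in mNS. Of markers of other cells, 2 of 6 for microglia and blood were listed (summed level 4.05 to 5.44 CPM in GL261 and 6.87 to 9.51 CPM in mNS), 2 of 4 for fibroblasts (119 to 136 CPM and 4.64 to 8.61 CPM), 1 of 5 for neurons (Tubb3, 223 to 247 CPM and 4.60 to 13.4 CPM) and 0 of 4 for endothelium. Their part in the results below was not tested.

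Promoters were examined first, because the 75 genes lie scattered over the genome and their start regions are the sequence that could be compared. RefSeq windows of 300 bases (250 before to 50 after the start, GRCm38.p6) were found for 66 of the 75. In 40 of these 66 (60.6%) the window held the core of the NRF1 site (CGCANGCG), an ETS motif (CCGGAAG) or a YY1 motif (AAGATGGC) on either strand, against 36.6% of the 9003 windows of genes in the table and 18.1% of all 27025 windows. By ratio the YY1 letters differed most: 12 of 66 (18.2%) against 4.94% of genes in the table and 2.87% of all. The ETS letters were in 22 (33.3%, against 19.0% and 9.14%) and the NRF1 core in 19 (28.8%, against 18.5% and 8.46%). The SP1 motif GGGCGG went the other way relative to the genes in the table, with 32 windows (48.5%) against 66.4%, and 35.9% of all windows. The median GC content was 58.2% in members' windows, 61.3% in those of genes in the table and 52.7% over all windows. With shorter letters, CGGAAG for ETS was in 36 windows (54.5%, against 33.1% of genes in the table) and GATGGC for YY1 in 16 (24.2% against 15.3%).

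**Figure D1:**
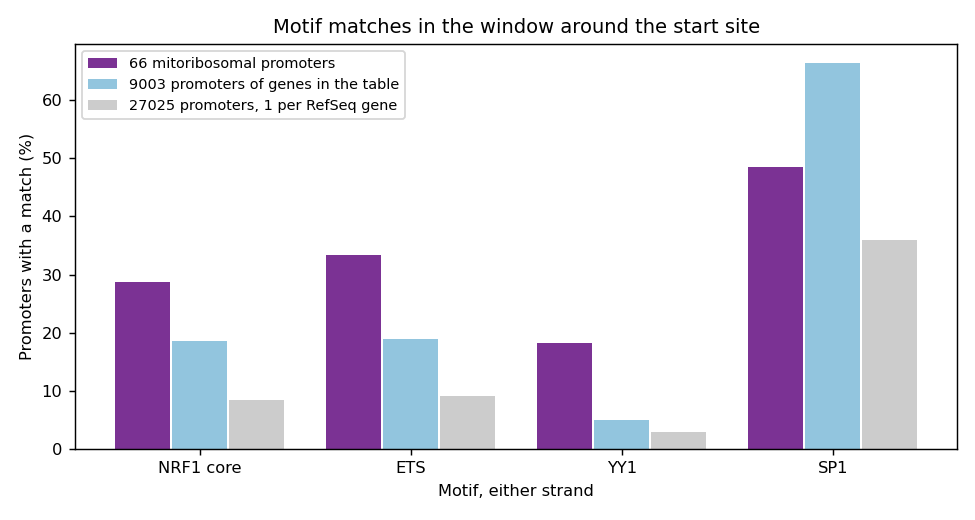
Share of promoter windows (vertical axis, percent) holding each of 4 motifs on either strand, for mitoribosomal genes, all genes of the deposited table and all RefSeq genes. YY1, ETS and NRF1 core letters are in a larger share of the mitoribosomal windows than of either other set, while for SP1 the mitoribosomal share (48.5%) lies between them.

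The windows below were taken only from called genes whose window held at least 1 NRF1, ETS or YY1 match. Among those genes, the one with the largest difference in each direction and subunit was used. Mrpl11, Mrps14, Mrps16, Mrps34, Mrps6 and Mrps5 had larger differences than the genes printed for their direction and subunit. The windows are shown to let the matches be read in place, and were picked for holding one, so the presence of a match in them is no finding. Capitals mark matches to any of the 4 motifs or to their reverse complements, and the start is counted in RefSeq.
Mrpl52, chr14:54426659-54426958, plus strand, lower in mNS: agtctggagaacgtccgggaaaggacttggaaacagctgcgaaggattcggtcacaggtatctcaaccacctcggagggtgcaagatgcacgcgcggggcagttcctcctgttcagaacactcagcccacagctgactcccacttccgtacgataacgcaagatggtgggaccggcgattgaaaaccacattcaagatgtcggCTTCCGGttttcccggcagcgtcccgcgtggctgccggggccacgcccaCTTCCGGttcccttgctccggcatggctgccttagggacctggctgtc
Mrpl36, chr13:73330759-73331058, plus strand, higher in mNS: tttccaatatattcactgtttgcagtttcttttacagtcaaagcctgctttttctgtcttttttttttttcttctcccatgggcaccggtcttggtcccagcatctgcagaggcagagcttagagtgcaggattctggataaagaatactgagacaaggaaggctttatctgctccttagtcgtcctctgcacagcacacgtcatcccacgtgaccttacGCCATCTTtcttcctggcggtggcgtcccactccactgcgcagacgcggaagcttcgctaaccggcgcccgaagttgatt
Mrps11, chr7:78782881-78783180, plus strand, lower in mNS: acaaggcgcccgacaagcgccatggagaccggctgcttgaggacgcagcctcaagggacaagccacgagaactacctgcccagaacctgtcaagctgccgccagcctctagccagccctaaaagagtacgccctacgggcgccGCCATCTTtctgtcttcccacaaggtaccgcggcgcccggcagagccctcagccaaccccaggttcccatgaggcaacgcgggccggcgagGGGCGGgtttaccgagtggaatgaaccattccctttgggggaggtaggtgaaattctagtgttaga
Mrps18b, chr17:35916391-35916690, minus strand, higher in mNS: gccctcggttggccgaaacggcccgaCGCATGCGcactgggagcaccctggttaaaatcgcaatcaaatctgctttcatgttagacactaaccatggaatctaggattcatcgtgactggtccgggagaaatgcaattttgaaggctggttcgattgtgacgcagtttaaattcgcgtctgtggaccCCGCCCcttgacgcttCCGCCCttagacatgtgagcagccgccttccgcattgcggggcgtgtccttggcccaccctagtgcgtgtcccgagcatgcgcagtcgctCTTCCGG

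In the Mrpl52 window an ETS match began 47 bases before the start and another 2 bases after it. The Mrpl36 window held a YY1 match 30 bases before the start. In the Mrps11 window a YY1 match lay 107 bases and an SP1 match 16 bases before the start. The Mrps18b window held an NRF1 core 224 bases before, SP1 matches 63 and 47 bases before, and an ETS match 43 bases after the start. Split by the expression test described next, a match to NRF1, ETS or YY1 letters was in 19 of 27 windows of genes lower in mNS (70.4%), in 7 of 13 of genes higher in mNS (53.8%) and in 14 of 26 of genes not called (53.8%). ETS letters were in 10 of 27, 2 of 13 and 10 of 26 of these windows. These are descriptions of letters in a fixed window, with no test.

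Stem-like and serum-grown glioma cells were then compared for expression of the 75 genes. Mitoribosomal genes moved in both directions and mostly by small amounts. In limma (two-sided, on log2(CPM + 1), Benjamini-Hochberg adjusted p under 0.05 over 12006 genes), 44 of the 75 were called (58.7%), 29 lower and 15 higher in mNS. Over all genes tested the call rate was 64.3%, with 32.2% higher and 32.1% lower. In bulk RNA a lower level in fewer cells and less RNA per cell cannot be told apart. The share called was near the background, 38.7% of members were lower and 20.0% were higher. The median difference of members, mNS minus GL261, was -0.10 on the log2 scale, against -0.0027 over all genes. The values of the 3 mNS and the 3 GL261 libraries did not overlap for 54 members (72.0%, against 69.9% of all genes), 35 of them lower and 19 higher in mNS. Only 2 members, Mrpl52 and Mrpl33, were called with a log2 difference of at least 1 either way (2.67%, against 19.7% of all genes). Related sets described below had similarly low shares. These were 1.30% of respiratory chain and ATP synthase subunits, 1.27% of cytosolic ribosomal protein genes and 2.20% of other genes of mitochondrial translation.

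Member differences lay close together. Their SD was 0.36 on the log2 scale, against 1.12 over all genes tested, and their quartiles were -0.28 and 0.17, against -0.38 and 0.43. A difference within 0.5 either way was found for 65 of the 75 (86.7%), against 58.4% of all genes. The share was 88.3% of respiratory chain and ATP synthase subunits and 82.3% of cytosolic ribosomal protein genes. It was 81.3% of other genes of mitochondrial translation (lists below), so a narrow spread was not particular to the members. Restricting both sets to mean levels of 22.7 to 94.6 CPM left 59 members, of which 52 (88.1%) lay within 0.5, against 63.2% of 4693 genes at those levels. In that band 61.0% of members and 64.4% of genes were called.

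**Figure D2:**
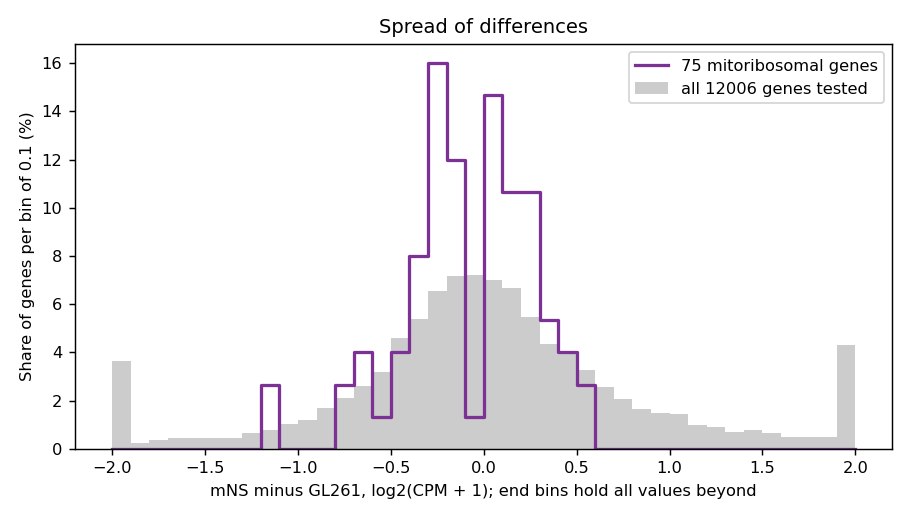
Distribution of the log2 difference between mNS and GL261 (horizontal axis, log2(CPM + 1) units; vertical axis, share of genes per bin) for the 75 mitoribosomal genes (line) and all 12006 genes tested (grey). Members lie between -1.14 and 0.59, while the end bins collect the genes beyond 2 in either direction.

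Balance of directions depended on the scaling of the libraries. With each library rescaled to a common sum, the median of all genes moved to 0.08, 37.1% of genes were higher and 26.6% lower, and 39 members were called, 19 higher and 20 lower, with a members' median of -0.01. Under median centring 12 were higher and 33 lower, and under quantile normalisation 13 and 26. Of the 12006 genes, 3711 were higher and 4040 lower under median centring, and 3836 and 3874 under quantile normalisation. No called member changed sign in any of the 17 alternative fits. Of the 29 lower members 20 were called lower in every one of these fits, and of the 15 higher members 8 were called higher. Higher calls numbered 9 without the third GL261 library (passage 34) or without the second mNS library (passage 77). Over all genes they numbered 3520 and 3320 in these fits, against 3865 with all libraries.

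Large-subunit genes gave 30 calls among 47 (63.8%, against 64.3% of all genes), 19 lower and 11 higher in mNS, with a median difference of -0.13. As shares these were 40.4% lower and 23.4% higher, against 32.1% and 32.2% of all genes. Higher calls numbered 6 without the third GL261 library, 5 without the second and 7 without the third mNS library. Over all genes they numbered 3520, 3320 and 3515 in these fits, against 3865 with all libraries. The large-subunit median was -0.08 without the first mNS library (passage 72). Small-subunit genes gave 14 calls among 28 (50%), 10 lower (35.7%) and 4 higher (14.3%). Their median of 0.01 had a sign that depended on the setting: leaving out 1 library gave -0.08 to 0.03. Whether the subunits differ was not tested. Mrps18a and Mrps30 carry small-subunit names, but their proteins sit in the large subunit. Counted by place, the large subunit had 31 of 49 called, or 63.3% (12 higher, 19 lower, median -0.11). The small subunit had 13 of 26, or 50% (3 higher, 10 lower, median -0.05).

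Proteins with a bacterial counterpart, 48 of the 75, had 28 genes called (58.3%, against 64.3% of all genes), with a median of -0.06. Of these 12 were higher (25%) and 16 lower (33.3%) in mNS, against 32.2% and 32.1% of all genes. The 27 mitochondria-specific proteins had 16 called (59.3%), 3 higher (11.1%) and 13 lower (48.1%), with a median of -0.19. The classes were assigned from textbook knowledge and the difference between them was not tested.

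**Figure D3:**
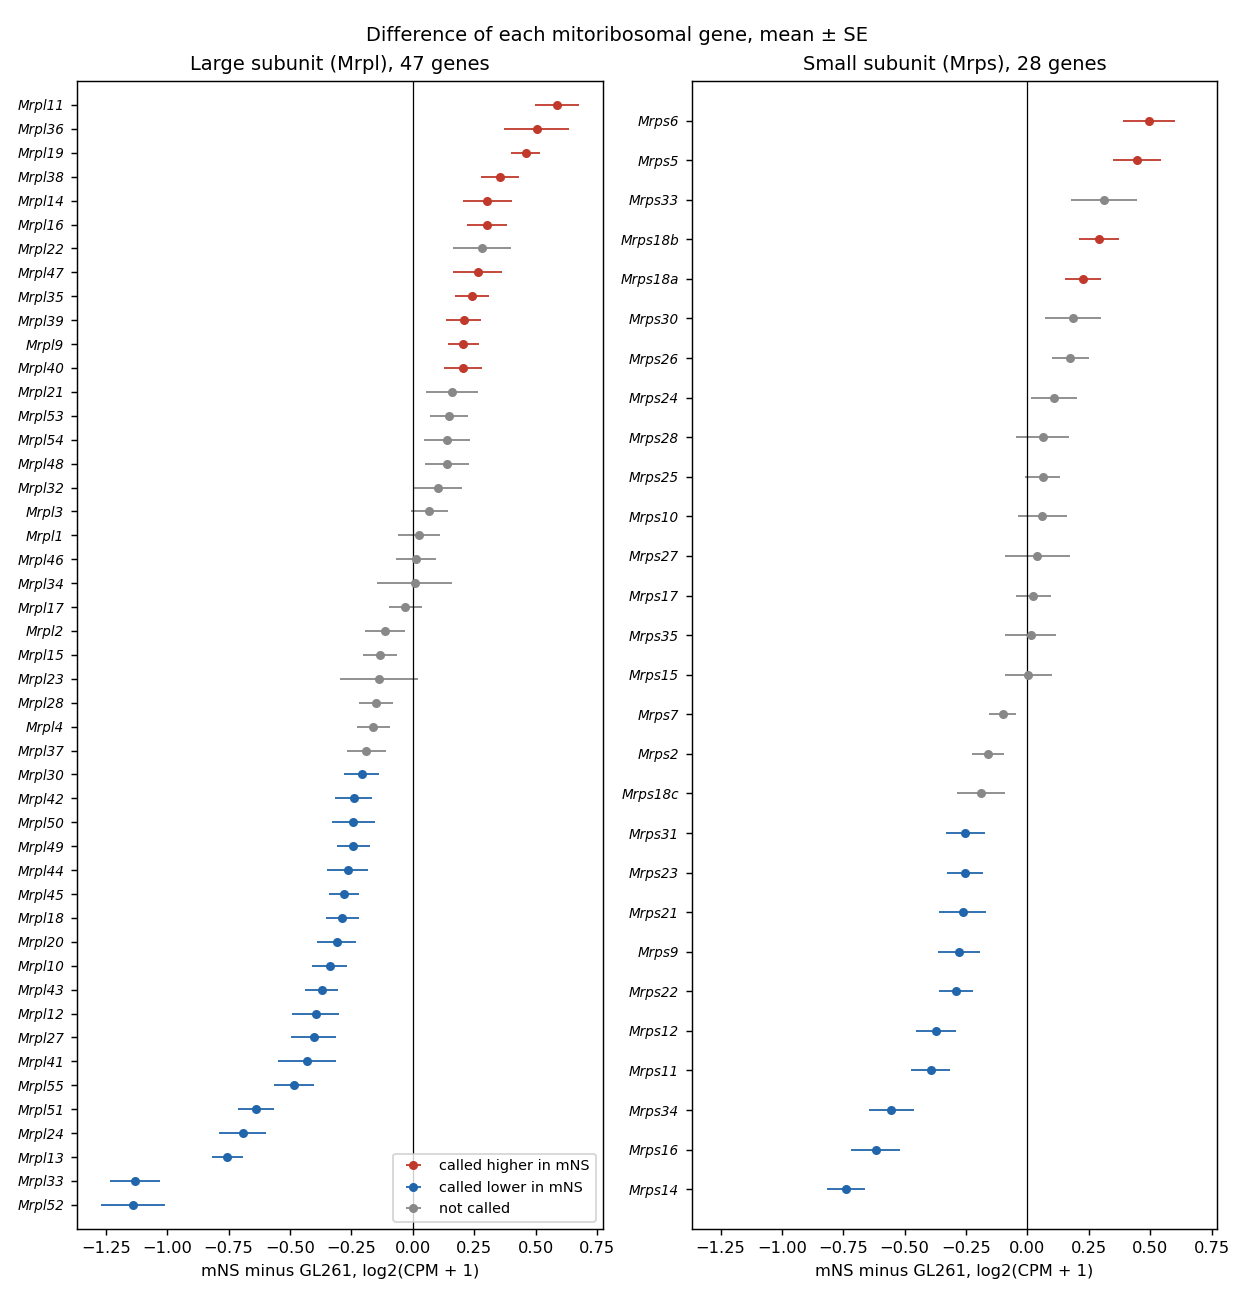
Log2 difference between mNS and GL261 with its standard error (horizontal axis, log2(CPM + 1) units) for each large-subunit gene (left) and small-subunit gene (right), ordered by size, coloured by call. Mrpl52 and Mrpl33 stand apart at the low end, and most other genes lie within 0.5 of 0.

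Among large-subunit genes lower in mNS, the widest gaps belonged to a mitochondria-specific protein and a counterpart of bacterial L33. Mrpl52 (chromosome 14, 54426909 to 54429756, GRCm38), whose protein has no bacterial counterpart, had 42.3, 60.1 and 55.4 CPM in GL261 at passages 17, 33 and 34, and 21.3, 23.8 and 24.3 CPM in mNS at passages 72, 77 and 85. Every GL261 library lay above every mNS library. The largest rises and falls named here were taken from calls with separate groups, so separation is no finding for them. The log2 difference of Mrpl52 was -1.14 ± 0.13 (SE, limma adjusted p = 8.99e-05). Mrpl33 (chromosome 5, 31596935 to 31664384) had 125, 152 and 151 CPM in GL261 and 57.5, 67.2 and 69.2 CPM in mNS (difference -1.13 ± 0.10 in log2 units, adjusted p = 2.00e-05). In both genes passage 17 was the lowest GL261 library and passage 72 the lowest mNS library.

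Mrpl13, which encodes the counterpart of bacterial L13, had 187, 180 and 178 CPM in GL261 and 101, 110 and 112 CPM in mNS. Mrpl24, whose protein lies near the exit of the peptide tunnel, had 78.1, 78.3 and 76.2 CPM against 42.4, 46.6 and 54.5 CPM. Mrpl51, a mitochondria-specific protein, had 103, 118 and 117 CPM against 70.3, 72.8 and 72.9 CPM. The log2 differences of these 3 genes were -0.76 ± 0.06, -0.69 ± 0.09 and -0.64 ± 0.07 (adjusted p = 1.35e-05, 0.000256 and 8.33e-05). Mrpl55 (counterpart of bacterial L31) fell by 0.48 ± 0.08 and the mitochondria-specific Mrpl41 by 0.43 ± 0.12 on the same scale, from means of 41.3 and 22.1 CPM in GL261 to 29.3 and 16.1 CPM in mNS.

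The stalk recruits translation factors to the large subunit. Its repeated protein, encoded by Mrpl12, is also known for binding the mitochondrial RNA polymerase. Mrpl12 had 105, 109 and 105 CPM in GL261 and 69.9, 81.4 and 91.2 CPM in mNS (log2 difference -0.40 ± 0.09, adjusted p = 0.00592). Its mNS values differed more from each other than its GL261 values did, with passage 85 nearest to GL261. Mrpl10, which anchors the stalk, was lower in mNS, at 84.4 ± 5.96 against 107 ± 2.15 CPM (log2 difference -0.34 ± 0.07, adjusted p = 0.00276). Mrpl11, at the base of the stalk, went the other way and had the largest rise of any member: 28.4, 34.2 and 32.1 CPM in GL261 and 45.7, 48.2 and 49.4 CPM in mNS (log2 difference 0.59 ± 0.09, adjusted p = 0.000494). Neighbouring proteins of 1 structural element were thus encoded by genes that moved in opposite directions. Mrpl10 is named beyond the rule for named genes, with its values known.

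Mrpl45, whose protein contacts the inner membrane near the tunnel exit, had 78.8, 77.1 and 76.7 CPM in GL261 and 62.5, 64.1 and 64.1 CPM in mNS (log2 difference -0.28 ± 0.06, adjusted p = 0.00345). Mrpl44, which has a ribonuclease III-like fold, had 43.1, 45 and 46.2 CPM against 40.2, 37.0 and 34.2 CPM (-0.27 ± 0.08, adjusted p = 0.0222). The groups did not overlap for either gene, but the Mrpl44 call was lost with libraries at a common sum (adjusted p = 0.0985) and in 4 of the fits that left out a library.

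Rises among large-subunit genes were smaller. Mrpl36, encoding the counterpart of bacterial L36, had 40.3, 53.5 and 53.1 CPM in GL261 and 59.9, 72.1 and 77.2 CPM in mNS (log2 difference 0.50 ± 0.13, adjusted p = 0.00937). Mrpl19, the counterpart of bacterial L19, had 61.4, 61.1 and 60.6 CPM against 84.6, 82.5 and 85.9 CPM, with little spread inside either group (0.46 ± 0.06, adjusted p = 0.000204). Mrpl38, whose protein lies at the central protuberance, had 60.1, 61.4 and 69.1 CPM against 76.9, 83.1 and 84.2 CPM (0.35 ± 0.08, adjusted p = 0.00384).

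Mrpl16 rose from 37.1 ± 0.656 to 46.1 ± 3.44 CPM (SD, n = 3; log2 difference 0.30 ± 0.08). Mrpl14, whose protein is the docking site of the assembly factor Malsu1, rose from 15.4 ± 0.663 to 19.3 ± 1.41 CPM (0.30 ± 0.10). Mrpl47, whose protein lies near the tunnel exit, rose from 23.2 ± 1.18 to 28.1 ± 3.05 CPM (0.26 ± 0.10). The calls of Mrpl14 and Mrpl47 did not hold in several fits: with quantile normalisation their adjusted p was 0.0713 and 0.0875, and without the third mNS library 0.0697 and 0.169.

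**Figure D4:**
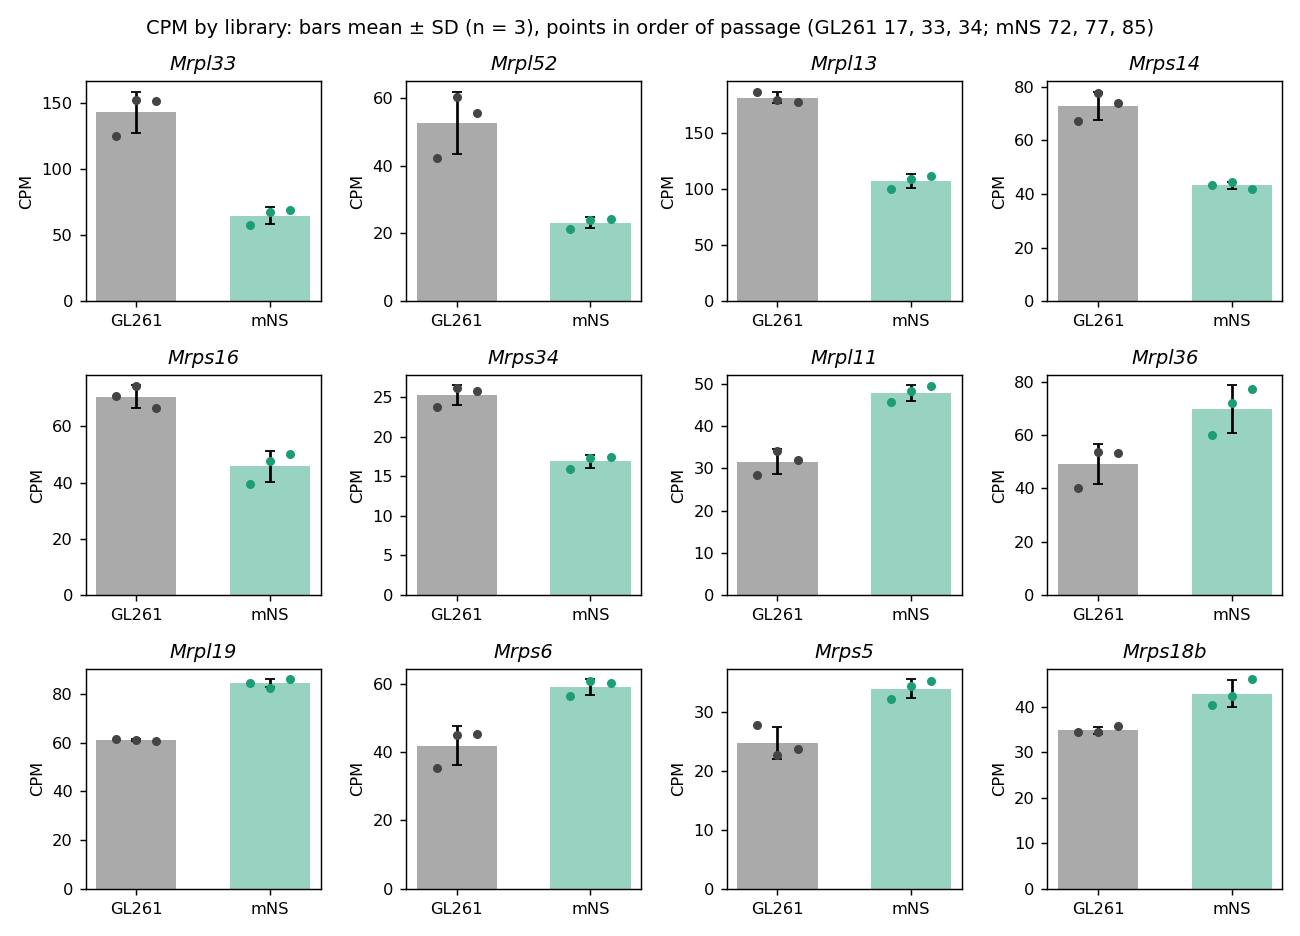
CPM of 12 mitoribosomal genes in each library (points, in order of passage), with group means as bars and the SD as error bars (n = 3). The first 6 genes are lower and the last 6 higher in mNS. All 12 were picked from calls whose groups do not overlap, so the separation in the panels is no finding.

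Of the small-subunit genes, Mrps14 (chromosome 1, 160195215 to 160202170), which encodes a protein of the head of the subunit, had the largest fall. It had 67.1, 77.5 and 74.0 CPM in GL261 and 43.2, 44.5 and 42.0 CPM in mNS (log2 difference -0.74 ± 0.08, adjusted p = 5.13e-05). Mrps16 had 70.6, 74.4 and 66.3 CPM against 39.4, 47.6 and 50.2 CPM (-0.62 ± 0.10, adjusted p = 0.000695). Mrps34, a mitochondria-specific protein, had 23.8, 26.1 and 25.8 CPM against 15.9, 17.2 and 17.5 CPM (-0.55 ± 0.09, adjusted p = 0.000793). Human variants in the genes for all of these 3 proteins are known from respiratory chain deficiencies. Mrps12, which encodes a protein of the decoding centre, had 34.6, 35.3 and 33.6 CPM against 27.7, 26.8 and 24.8 CPM (-0.37 ± 0.08, adjusted p = 0.00373). Mrps11, counterpart of bacterial S11, fell from 38.9 ± 2.23 to 29.3 ± 0.295 CPM (-0.39 ± 0.08, adjusted p = 0.00229); it is named here for its promoter. The groups did not overlap for Mrps12 and Mrps11, nor for the other 3 genes, which were picked from calls with separate groups.

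Mrps6, counterpart of bacterial S6, had 35.3, 45 and 45.3 CPM in GL261 and 56.5, 60.6 and 60.04 CPM in mNS (log2 difference 0.50 ± 0.11, adjusted p = 0.00313). It shares exon sequence on the same strand with Slc5a3, an inositol transporter, which rose from 388 ± 99.9 to 797 ± 102 CPM (log2 difference 1.07 ± 0.18), so reads of these genes cannot be fully told apart. Mrps5, whose protein lies near the entry of the mRNA channel, had 27.9, 22.7 and 23.8 CPM against 32.2, 34.5 and 35.4 CPM (0.45 ± 0.10, adjusted p = 0.00406).

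The 3 genes of the S18 family, whose proteins share an ancestor but occupy different places, did not move together. Mrps18a, in the large subunit, had 43.8, 44.8 and 42.0 CPM in GL261 and 54.1, 49.0 and 50.3 CPM in mNS (log2 difference 0.23 ± 0.07, adjusted p = 0.0250, with no call in 3 of the fits that left out a library). Mrps18b had 34.4, 34.4 and 35.8 CPM against 40.3, 42.4 and 46.1 CPM (0.29 ± 0.08, adjusted p = 0.0116). Mrps18c had 33.3, 30.8 and 29.3 CPM against 29.8, 25.1 and 26.7 CPM, with overlapping groups and no call (-0.19 ± 0.10, adjusted p = 0.117). Mrps30, also in the large subunit, was not called either (0.19 ± 0.11, adjusted p = 0.184). Dap3, a GTP-binding protein of the small subunit, had 50.0, 48.1 and 48.3 CPM in GL261 and 77.8, 76.6 and 78.5 CPM in mNS. Its rise (0.66 ± 0.06, adjusted p = 2.94e-05) was above that of any Mrpl or Mrps gene. Mrps36 was not among the listed genes.

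In all, 31 members were not called, 17 of the large and 14 of the small subunit. For 17 of them no alternative fit gave a call. Adjusted p above the threshold does not show that their levels were equal.

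Summed over genes, mitoribosomal levels in the authors' scaled CPM were lower in mNS. Large-subunit genes added up to 2955, 3062 and 2995 CPM in GL261 and to 2554, 2683 and 2786 CPM in mNS. Small-subunit genes added up to 1247, 1284 and 1258 CPM and to 1146, 1202 and 1211 CPM. The groups did not overlap in either sum, with means of 3004 ± 54.1 and 2674 ± 116 CPM for the large subunit (a change of -11.0%) and 1263 ± 19.2 and 1186 ± 35.1 CPM for the small subunit (-6.09%). Mrpl33 and Mrpl13 alone differed by 78.3 and 74.5 CPM between group means, out of 330 CPM for the large subunit. Column sums over all listed genes were also lower in mNS (968335 to 969269 CPM) than in GL261 (1.028e+06 to 1.038e+06 CPM). The sums by subunit do not take this out, and no share is given for either subunit alone. As a share of all signal in the table, which takes out differences in column sums, both subunits together made up 0.408%, 0.419% and 0.414% in GL261 and 0.382%, 0.401% and 0.412% in mNS, and the groups overlapped.

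The ratio of large-subunit to small-subunit sums, which does not depend on the scaling of a library, was 2.37, 2.38 and 2.38 in GL261 and 2.23, 2.23 and 2.30 in mNS. With Mrps18a and Mrps30 counted in the large subunit it was 2.59, 2.63 and 2.62 against 2.52, 2.50 and 2.59. The groups stood apart in the first form and overlapped in the second. A score over chosen members is given here as a description, without a p-value.

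Levels between genes were compared per kilobase of transcript (the median length of a gene's coding transcripts). Members ranged from 1.57 to 217 CPM per kb, with a median of 38.5. Large-subunit genes had a median of 50.9 and small-subunit genes of 31.5 CPM per kb, a ratio of 1.62, although the particle holds 1 copy of most of these proteins. Mrpl33 (217 CPM per kb, from 299 in GL261 to 135 in mNS), Mrpl17 (182) and Mrpl13 (152) had the highest levels of the large subunit. Mrpl17, a neighbour of the tunnel exit, was not called (log2 difference -0.03 ± 0.07).

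The lowest large-subunit levels were those of Mrpl23 (1.57 CPM per kb), Mrpl32 (6.86) and Mrpl47 (7.62). Mrpl23 has a copy elsewhere in the genome, Mrpl23-ps1, that is 100% identical over 507 bases, so its reads could be placed at either. In the small subunit Mrps23 (111 CPM per kb), Mrps17 (78.7) and Mrps21 (74.6) were highest. Mrps23 and Mrps21 were called lower in mNS (log2 differences -0.25 ± 0.07 and -0.26 ± 0.09), but at a common sum neither was (adjusted p = 0.0833 and 0.134), and Mrps17 was not called. Mrps25 (10.5 CPM per kb), Mrps33 (12.0) and Mrps5 (12.0) were lowest, and neither Mrps25 nor Mrps33 was called. Without the lowest gene, Mrpl23, levels per kb still spanned 31.7-fold.

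Within mNS the genes differed by passage in a common direction. Passage 72 was the lowest of the 3 mNS libraries for 53 of 75 members (70.7%, against 40.3% of all genes tested), and passage 85 was the highest for 47 (62.7%, against 36.5%). Passage 85 exceeded passage 72 in 63 members (84.0%, against 49.4% of all genes), by a median of 0.11 on the log2 scale, against -0.0025 over all genes. The count was 41 of 47 for the large and 22 of 28 for the small subunit, 22 of the 29 genes lower in mNS and 13 of the 15 higher in mNS. The widest steps were those of Mrpl34 (0.55), Mrpl22 (0.40) and Mrpl12 (0.38), and the widest in the other direction that of Mrpl44 (-0.23). Mrpl34 and Mrpl22 were singled out after their values were seen.

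Within GL261 no such order was seen: passage 17 exceeded the mean of passages 33 and 34 in 36 of 75 members, with a median of -0.01. Passage 34 exceeded passage 33 in 23 (30.7%, against 49.5% of all genes), by a median of -0.03. Summed cytosolic ribosomal protein genes rose in the order of passage within mNS, with 14106, 14670 and 15032 CPM at passages 72, 77 and 85. Summed respiratory chain and ATP synthase subunits did so too, with 10452.8, 10828.5 and 11063.7 CPM. Each passage is 1 library, so passage and library cannot be told apart, and there is no test. Without the passage 72 library the members' median difference between groups was -0.04 in place of -0.10.

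**Figure D5:**
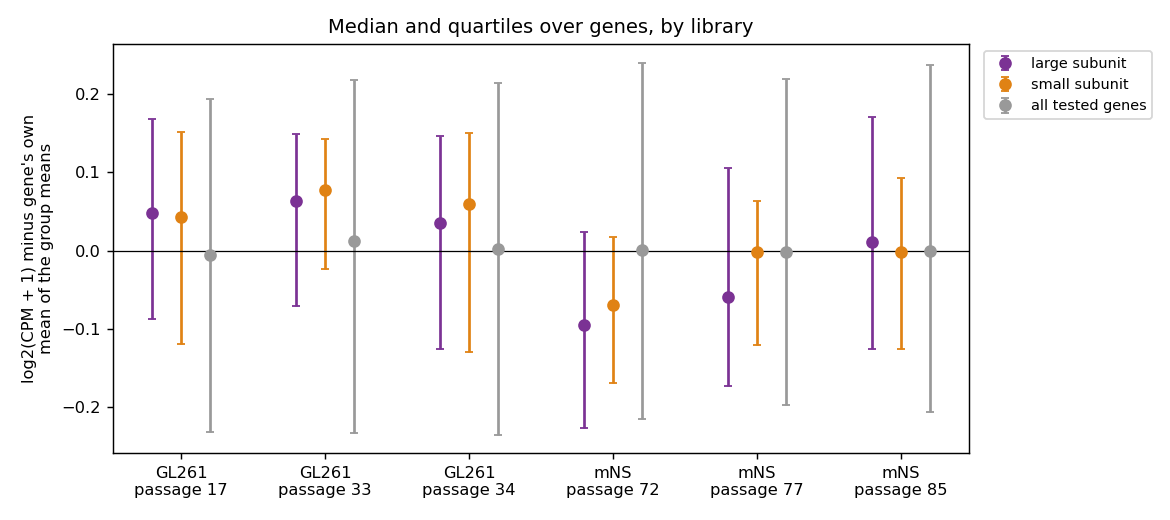
Median (point) and quartiles (bars) over large-subunit genes, small-subunit genes and all genes tested, of log2(CPM + 1) minus the gene's mean of the 2 group means, for each library in order of passage. In mNS the large-subunit median moves from -0.09 at passage 72 to 0.01 at passage 85, while the median of all genes stays near 0.

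Members are short genes, with a median transcript length of 1047 bases against 2216 for coding genes in the table. Pearson's r of log2 length and difference was 0.20 across the 75 members and 0.05 across coding genes, which are not independent replicates. Spearman's rho was 0.12 across members and 0.05 across coding genes. Below 750 bases 9 of 20 members were lower and 3 higher in mNS, against 32.4% and 26.4% of coding genes of that length. From 750 to 1000 bases 4 of 15 were lower and 3 higher (genes 32.4% and 26.7%), and from 1000 to 1500 bases 11 of 19 were lower and 3 higher (genes 33.7% and 29.6%). At 1500 bases or more 5 of 21 were lower and 6 higher (genes 32.3% and 34.5%). The members' medians in these bins, -0.16, 0.02, -0.27 and 0.06, followed no order of length.

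Many members share a start region with another gene. A coding gene on the other strand started within 1000 bases of 32 of the 75 (42.7%), against 17.0% of 11596 coding genes of the table. For 29 of these 32 members the partner was tested (Mrps11 and Mrpl46 are each other's partner and count once each). Member and partner were both called for 10 of the 29, and for 8 of these the directions were the same. Over all genes with such a partner, both were called in 325 of 864 cases, and 81.2% of these had the same direction. The members' share was close to that over all such genes.

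Pairs that fell together included Mrpl13 and Mtbp, a regulator of Mdm2 (log2 differences -0.76 and -0.92), and Mrpl43 and the mitochondrial helicase gene Twnk, listed as Peo1 (-0.37 and -0.36). Pairs that rose together were Mrpl40 with the histone chaperone gene Hira (0.21 and 0.51) and Mrpl14 with Tmem63b (0.30 and 0.63). Mrpl44 and Wdfy1 (-0.27 and 0.35) moved apart, as did Mrpl47 and Ndufb5, a subunit of complex I (0.26 and -0.20). The neighbours Mrps11 and Mrpl46, starting 412 bases apart, belong to different subunits. Mrps11 was lower in mNS and Mrpl46 had 29.8 ± 1.06 and 30.0 ± 1.43 CPM, with no call. In every pair named here except Mrpl40 with Hira, exons of member and partner overlap on opposite strands. Whether the counting used strand is not stated, so reads of overlapping partners may not be fully told apart.

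Exons of 32 members overlap those of another gene, on the other strand in 27 and on the same strand in 8. For 17 members a copy elsewhere matches at least 200 bases at 95% identity or more, among them Mrpl41, Mrpl51, Mrps5, Mrps16 and Mrps18b, whose values are uncertain to that extent. The kit keeps strand, but whether the counting used it is not stated in the sources used here. Among the 33 members with neither copy nor overlap, 19 were called (57.6%, against 64.3% of all genes), 7 higher and 12 lower, with a median of -0.13.

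Other genes of mitochondrial translation were also called in both directions. The 5 lists were assembly factors, translation factors, aminoacyl-tRNA synthesis, transcription with RNA processing (and some DNA replication genes), and mitoribosomal proteins with other names. Across them 49 of 91 genes were called (53.8%, against 64.3% of all genes), 20 higher (22.0%) and 29 lower (31.9%) in mNS. The median over the 91 was -0.10. The mitoribosomal proteins under other names gave 5 of 7 (71.4%). Besides Dap3, Gadd45gip1, a large-subunit protein, fell (log2 difference -0.63 ± 0.08), as did Aurkaip1, of the small subunit (-0.40 ± 0.08).

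Of 29 assembly genes 7 were higher (24.1%) and 9 lower (31.0%), against 32.2% and 32.1% of all genes. Rpusd3, a pseudouridine synthase-like protein, rose by 0.88 ± 0.16, and Mterfd2 (now Mterf4), which guides a ribosomal RNA methyltransferase, by 0.81 ± 0.09. Gtpbp10, a GTPase of large-subunit assembly, fell by 0.67 ± 0.11. Of 16 translation factors 3 were higher (18.8%) and 7 lower (43.8%). Pdf, the mitochondrial peptide deformylase, fell from 22.3 ± 2.06 to 9.91 ± 1.504 CPM (log2 difference -1.10 ± 0.13), while Mtrf1, a release factor, fell by 0.81 ± 0.14 and Slirp, which binds mitochondrial mRNAs, by 0.67 ± 0.09.

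Of 22 genes of aminoacyl-tRNA synthesis 4 were higher (18.2%) and 7 lower (31.8%), against 32.2% and 32.1% of all genes. Aars2 and Iars2, the mitochondrial tRNA synthetases for alanine and isoleucine, rose by 0.98 ± 0.14 and 0.49 ± 0.10. Of 17 genes of transcription and RNA processing 3 were higher (17.6%) and 4 lower (23.5%). The list also holds genes of DNA replication: Polg and Polg2 were among those higher and Peo1 (Twnk) among those lower. Hsd17b10, a subunit of mitochondrial RNase P, rose by 0.65 ± 0.11 and the DNA polymerase gene Polg by 0.42 ± 0.08. Rexo2, an oligoribonuclease, fell by 0.42 ± 0.07.

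Of 11 regulators of mitochondrial biogenesis 6 were higher (54.5%, against 32.2% of all genes) and 2 lower in mNS (18.2%, against 32.1%). The list had a median of 0.33, a direction that differed from that of the members. Ppargc1a, the coactivator PGC-1α, had 0, 0.149 and 0.217 CPM in GL261 and 3.10, 2.24 and 2.41 CPM in mNS (log2 difference 1.67 ± 0.17), a low level in either group whose fitted difference depends on the pseudocount. Ppard, a nuclear receptor, rose by 1.41 ± 0.14, and Myc by 0.74 ± 0.10. For the factors whose motifs were counted above, Gabpa, the DNA-binding subunit of GABP, rose by 0.33 ± 0.06. Of its partner subunits Gabpb1 rose by 0.42 ± 0.07 and Gabpb2 fell by 0.58 ± 0.09. Yy1 had 64.6, 85.8 and 81.0 CPM against 67.3, 61.2 and 48.6 CPM with overlapping groups (-0.38 ± 0.14, adjusted p = 0.0394), and Nrf1 was not called (-0.09 ± 0.06, adjusted p = 0.227). These 5 genes were chosen for their motifs.

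Ribosomal proteins of the cytosol and respiratory chain subunits were set beside the members. Of 79 cytosolic ribosomal protein genes tested, 39 were lower and 2 higher in mNS (median -0.19). These were 49.4% and 2.53%, against 32.1% and 32.2% of all genes. The sum of the cytosolic genes changed from 17822 ± 664 to 14602 ± 467 CPM (-18.1%). Rps4x (860 ± 52.1 to 323 ± 27.4 CPM), Rpl10 and Rpl34 were lower by 1.41, 0.91 and 0.85 on the log2 scale; cytosolic ribosomal protein genes have many near-identical copies, so single values are uncertain. Of 77 nuclear-encoded subunits of the respiratory chain and ATP synthase, 28 were lower (36.4%) and 16 higher (20.8%), with a median of -0.04. The sum of these subunits changed from 12282 ± 281 to 10782 ± 308 CPM (-12.2%). Cox7b (240 ± 9.34 to 116 ± 11.7 CPM) and Ndufs1 fell, by 1.05 and 0.80, and Ndufa1 rose by 0.86. The mitoribosomal sum over both subunits, 4268 ± 73.2 and 3861 ± 150 CPM (-9.54%), changed in the same direction by a smaller percentage. All of these sums are in the authors' scaled CPM. They do not take out the lower column sums of mNS (968335 to 969269 CPM, against 1.028e+06 to 1.038e+06 CPM in GL261). Differences between these 3 groups of genes were not tested.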

How the data were processed

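Per the labels' protocols, ribosomal RNA was removed from total RNA before stranded, single-read sequencing. TopHat2 2, HTSeq 0.5.3p9, edgeR 3.4.2 and mm10 are named in the submitters' processing notes. The authors deposited 1 table of normalised signal per gene and library, CPM with TMM factors per the series text. Divided by the worth of 1 read, 100% of values were whole within 0.001 reads, so reads could be recovered. Differences were tested with limma 3.58.1 (lmFit, eBayes with trend; R 4.3.3) on log2(CPM + 1) for the 12006 genes whose mean reached 1 CPM, leaving out 145. Count tests on recovered reads (edgeR 4.0.16 quasi-likelihood, DESeq2 1.42.0) called 7651 and 7353 genes. Other alternatives were pseudocounts, filters, scalings, weights, a stricter threshold and leaving out libraries. The scripts were tested on simulated data. Gene positions were read from GENCODE M21 (GRCm38, which is mm10), copies from BLAST 2.17.0 against its transcripts, and promoters from RefSeq. Tables and plots used Python 3.11.15. Members, lists and motifs were chosen with earlier results of these data known. Members named were the 10 largest rises and falls among calls with separate groups, the 3 highest and 3 lowest per subunit by CPM per kb, and fixed members of known role; for other lists, up to 3 called genes with the largest differences. One gene that this rule names is not reported here.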

Additional observations from a re-analysis of the deposited data

How the results depend on the processing

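Counts of calls under the alternatives stayed within 1.5 times those reported, with these exceptions. At a common sum 6 small-subunit genes were lower. With array weights 7 small-subunit genes were higher, and 4682 of all 12006 genes. At an adjusted p under 0.01, 26 mitoribosomal genes were called (7 higher, 19 lower), 18 of the large subunit (5 higher) and 8 of the small (2 higher, 6 lower), and 29 other genes of mitochondrial translation. No share over all genes is given at that threshold. Leaving out 1 library gave 9 to 16 higher calls, 5 to 12 of them in the large subunit, against 3320 to 3908 among all genes.

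The large-subunit median was -0.0431 at a common sum, -0.0658 with quantile normalisation and -0.163 to -0.0766 with 1 library left out. The small-subunit median, near 0, was 0.0972 at a common sum, -0.0144 with median centring, -0.0159 with quantile normalisation, -0.0067 with array weights, -0.0480 by place of the protein and -0.0840 to 0.0295 with 1 library left out. The difference of Mrpl17 was 0.0605 at a common sum, 0.0429 with quantile normalisation and -0.0734 to 0.00047 with 1 library left out, and that of Mrps17 -0.0110 to 0.0730 with 1 library left out; neither was called in those fits. The shorter ETS letters were in 36 windows. The cause of these shifts was not tested. The labels give the groups no shared replicate numbers, so no paired analysis was possible because no samples correspond. Precision is limited by groups of 3 libraries and by depth, with Mrpl23, near 1 CPM, resting on the fewest reads of any member.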
